A study of Homo sapiens with 13 samples.

Results

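The AP-1 and immediate early genes described here are 10 genes, namely FOS, FOSB, FOSL1, FOSL2, JUN, JUNB, JUND, EGR1, ATF3 and IER3, found by their symbols among 24875 genes of a Silvestrol experiment and 13121 genes of an INK128 experiment. They were selected on their mRNA, ribosome footprint and translation values in these same libraries, so all of these values, and the members' calls in tests run across all genes, are given as a description and as no independent support. IER3 had 0 reads in the 9 libraries of the Silvestrol experiment and was measured with INK128 only, so the Silvestrol results cover 9 members. Its ribosome footprints were the highest of the members in the INK128 experiment, so those 0 reads are not taken as a lack of expression. Both experiments used MDA-MB-231, an established line of triple-negative breast carcinoma cells.

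Ribosome footprints (RFs), the mRNA fragments that translating ribosomes shield from nuclease, were sequenced from untreated cells of passage 3 and from cells that received the vehicle DMSO or Silvestrol at 25 nM, for 1 h at passage 3 and for 2 h at passages 3 and 4. mRNA was sequenced at 2 h from 1 DMSO and 1 Silvestrol culture of passage 3. Silvestrol inhibits eIF4A, the RNA helicase of the cap-binding complex eIF4F. INK128, an inhibitor of the kinase mTOR, was given at 200 nM for 2 h, with 1 RF and 1 total RNA library for the drug and 1 of each for DMSO, all at passage 3. Vehicle and drug were both added in fresh medium. The study calls the cultures of the different passages biological replicates, and they are of 1 cell line, so the p-values measure the spread between these cultures alone. A treatment field gives 1 h for the Silvestrol RF library titled 2 h at passage 3, a field of the DMSO mRNA library calls it untreated, and the deposited control mRNA values carry no treatment name. All mRNA and translation values below rest on reading that library as DMSO at 2 h. The ratios and TE scores of passage 3 at 2 h, the tests at 2 h and the comparison of 1 h with 2 h of Silvestrol also rest on the title of the Silvestrol library.

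Counted reads were 12010405 to 31188148 in the 5 RF libraries of passage 3, 6446356 (DMSO) and 2652423 (Silvestrol) in those of passage 4, and 50315607 (DMSO) and 24792922 (Silvestrol) for mRNA. Levels are in RPKM, reads per kilobase of transcript scaled to the size of the library. Of the markers of the line, vimentin (VIM) was at 4789 to 7031 RPKM in the RF libraries, while the estrogen receptor ESR1 was at 0 in every library. Of the markers of other cells, PTPRC (leukocyte) was at most 0.0307 RPKM of RFs and COL1A1 (fibroblast) was at 0.877 to 1.79 RPKM of RFs. PECAM1 (endothelium) had no RF value and was at 0.863 RPKM of mRNA with DMSO. ERBB2 and EPCAM, which should be absent or low in this line, were at 1.63 to 4.05 and 3.24 to 9.94 RPKM of RFs, and ERBB2 mRNA was at 25.8 RPKM with DMSO and 18.7 RPKM with Silvestrol. Intervals given for a ratio of 2 libraries are 95% exact intervals that cover counting error only.

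Immediate early genes are switched on within minutes of a stimulus such as fresh serum, through transcription factors already present in the cell. The FOS and JUN families are basic leucine zipper proteins that pair to form AP-1, which binds DNA to drive proliferation, invasion and stress responses. Their mRNAs are short-lived, and when protein synthesis is blocked many of them accumulate far beyond their usual level, which is known as superinduction. A gene can therefore gain mRNA while the ribosomes on each mRNA decline, so RFs, mRNA and their ratio, the translational efficiency (TE), are given side by side.

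With Silvestrol for 2 h, mRNA of 6 of the 9 measured members was at least 2-fold higher, namely EGR1, FOS, FOSB, ATF3, JUN and JUNB. This compares with 4.7% of the 10516 genes with enough RFs and mRNA for the comparison, and since the members were chosen with this change known, nothing is read from the difference. FOSL1 and FOSL2 were 1.34 and 1.29-fold higher, and JUND was level at 1.01-fold, so that all 9 were at or above control, where 52.6% of genes were higher. RFs of both Silvestrol libraries were above both controls for EGR1, FOS and ATF3 and below both for JUN and FOSL2. They overlapped the controls for FOSB, JUNB and JUND, and depended on the unit for FOSL1. Within a passage, the JUNB ratio of Silvestrol to DMSO was 1.04 (0.977 to 1.10) in passage 3 and 1.69 (1.44 to 1.99) in passage 4.

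The number of members whose 2 Silvestrol RF libraries at 2 h both lay above both DMSO libraries was 3 (EGR1, FOS and ATF3), and 20.5% of genes did so. Both lay below for 2 members (FOSL2 and JUN), and 40.1% of genes did so. By RPM (reads scaled to the library total alone), a unit added after seeing the data, 4 members lay above (the same 3 and FOSL1), where 24.8% of genes did, and 2 below (FOSL2 and JUN), where 35.1% did. In edgeR's quasi-likelihood test of RF reads across 11196 genes, with Benjamini-Hochberg adjustment, 1 member (FOSL2) was called lower, where 5.96% of genes were, and 0 were called higher, where 1.54% were. At an unadjusted p under 0.05 the members were 4, with ATF3, EGR1 and FOS beside FOSL2, where 29.6% of genes passed. With passage as a block, 2 members were called lower (FOSL2 and JUN) and 5 higher (ATF3, EGR1, FOS, FOSL1 and JUNB), where 26.7% and 23.9% of genes were. With DESeq2, 1 was called lower and 3 higher, where 10.8% and 6.8% of genes were, and with no filter on low counts also 1 and 3, where 6.93% and 2.07% were. Without the DMSO library of passage 3 the calls were 1 lower and 3 higher, where 4.64% and 1.23% of genes were called. Without that of passage 4 they were 2 lower and 2 higher, where 5.39% and 0.794% were. With 1 of the Silvestrol libraries left out, 0 members were called, as were 0% of genes in either direction. These calls use the contrast that chose the members and are listed as a description.

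**Figure D1:**
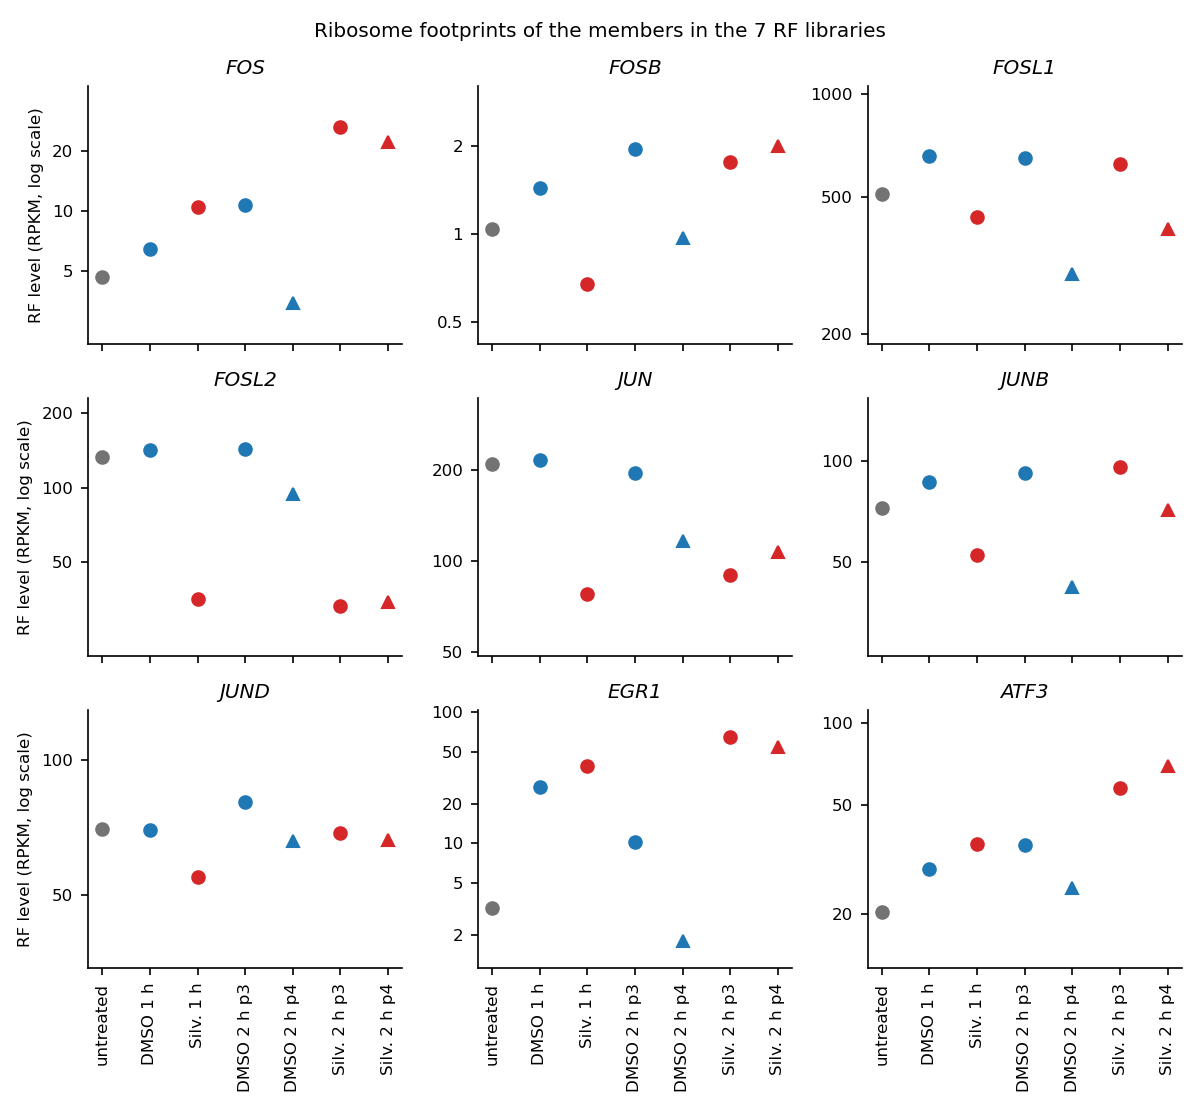
RF level in RPKM (log scale) of the 9 members measured with Silvestrol, one panel each, in the 7 RF libraries. Circles are passage 3 and triangles passage 4, in grey for untreated, blue for DMSO and red for Silvestrol cells. FOSL2 is at 33.4 to 35.6 RPKM in the 3 Silvestrol libraries and at 94.2 to 144 RPKM in the others, whereas EGR1 reaches 64.5 RPKM with Silvestrol at 2 h.

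EGR1, a zinc finger transcription factor induced by serum through the serum response factor, had the largest change of the members. Its RF level was 3.21 RPKM in untreated cells, 27.1 with DMSO and 38.5 with Silvestrol at 1 h. In passage 3 at 2 h it was 10.3 (DMSO) and 64.5 (Silvestrol), and in passage 4 it was 1.79 and 54.6. In vehicle-treated cells of passage 3 the level was thus higher at 1 h than at 2 h, while with Silvestrol the level was higher at 2 h than at 1 h. The ratio of Silvestrol to DMSO RFs at 2 h was 6.28 in passage 3 (95% interval 5.71 to 6.92) and 30.5 in passage 4 (20.1 to 48.3), the latter with only 24 DMSO reads. edgeR put the log2 RF change at 3.32 (SE 0.76, n = 2), at 5.19 without the DMSO library of passage 3 and at 2.62 without that of passage 4.

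EGR1 mRNA was at 2.89 RPKM with DMSO and 37.2 RPKM with Silvestrol, a ratio of 12.9 (11.8 to 14.1). This ranked 5th from the top of 10516 genes. The 4 genes above it, TIMM23, FUNDC2, GPAT2 and PRSS3, had log2 mRNA changes of 8.46, 7.78, 6.45 and 5.72 but log2 RF changes of −0.79, −0.14, −0.53 and 0.46. They had 1 to 25 mRNA reads with DMSO, against 572 for EGR1.

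The EGR1 promoter window (250 bases before to 50 after the start, RefSeq, GRCh38.p14) holds 2 CArG boxes, the site to which serum response factor binds. They are shown because 1.29% of 35116 promoter windows hold a match, on either strand, to the CArG pattern searched, CC, then 6 bases that are each A or T, then GG. Capitals mark the match, which starts at −105 and −83 from the transcription start, on the plus strand at chr5:138465366-138465391 and chr5:138465388-138465413.
EGR1 CArG box at −105: cggtcctgCCATATTAGGgcttcctg
EGR1 CArG box at −83: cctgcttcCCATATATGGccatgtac
None of the other 7 members with an entry in the promoter table (all but FOSL1 and IER3) matched in its window. Bases farther from the start were not searched.

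FOS, the founding member of the AP-1 family, also had more RFs with Silvestrol, but with DMSO in passage 3 its level was higher at 2 h than at 1 h, unlike that of EGR1. RFs were at 4.63 RPKM in untreated cells, 6.39 with DMSO and 10.4 with Silvestrol at 1 h. After 2 h they were at 10.7 (DMSO) and 26.4 (Silvestrol) in passage 3, against 3.43 and 22.1 in passage 4. Silvestrol libraries were the higher at each time and in each passage. The ratio at 2 h was 2.47 (2.17 to 2.82) in passage 3 and 6.43 (4.24 to 9.97) in passage 4, and edgeR put the log2 change at 1.86 (SE 0.55, n = 2), with 3.00 and 1.30 without the DMSO library of passage 3 and of passage 4. FOS mRNA was at 1.59 RPKM with DMSO and 10.8 RPKM with Silvestrol, 6.76-fold higher (5.81 to 7.90), from 217 and 753 reads.

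FOSB, which dimerises with JUN proteins like FOS, was read from few fragments, and its RFs were at 1.04 RPKM in untreated cells, 1.43 with DMSO at 1 h and 0.674 with Silvestrol at 1 h. In passage 3 at 2 h it was at 1.95 (DMSO) and 1.77 (Silvestrol), and in passage 4 it was 0.967 and 2.00, the last pair being only 8 and 7 reads. The groups overlap, and the passages had opposite signs. Its mRNA was nevertheless 6.51-fold higher (5.04 to 8.50), at 0.326 RPKM with DMSO and 2.13 RPKM with Silvestrol, from 78 and 261 reads. With a pseudocount of 0.5 RPKM its log2 mRNA change was 1.67 in place of 2.70, against 2.43 for FOS. The RF ratio in passage 4 was 2.07 (0.639 to 6.53), an interval that holds the FOS ratio, and the difference between FOS and FOSB was not tested.

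FOSL1 (FRA1) had the highest RF level of the measured members, at 512 RPKM in untreated cells. With DMSO it was at 658 RPKM at 1 h, and at 649 and 300 RPKM at 2 h in passages 3 and 4. With Silvestrol it was at 437 RPKM at 1 h, and at 624 and 404 RPKM at 2 h. The ratios of Silvestrol to DMSO within a passage at 2 h were 0.962 (0.916 to 1.01) and 1.35 (1.21 to 1.51) by RPKM. Its mRNA was at 195 RPKM with DMSO and 262 RPKM with Silvestrol. The length over which FOSL1 reads were counted, taken as reads over RPKM, was 1.63 times larger in the DMSO library of passage 4 than in that of passage 3, and within passage 3 it was 1.18 times larger with Silvestrol than with DMSO, so FOSL1 levels are not compared between passages by RPKM alone. By RPM, FOSL1 was at 180.0 and 136 with DMSO and at 204 and 192 with Silvestrol at 2 h (passages 3 and 4), higher with Silvestrol in both passages and without overlap.

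FOSL2 (FRA2) showed the opposite picture to FOS. RFs were at 134 RPKM in untreated cells, 142 with DMSO at 1 h and 35.6 with Silvestrol at 1 h. At 2 h, they were at 144 (DMSO) and 33.4 (Silvestrol) in passage 3, and 94.2 and 34.4 in passage 4. Every Silvestrol library lay well below every other library. The decline was 4.00-fold (3.73 to 4.28) at 1 h, 4.31-fold (3.95 to 4.72) at 2 h in passage 3 and 2.74-fold (2.24 to 3.36) in passage 4, and edgeR put the log2 change at −1.68 (SE 0.26, n = 2). FOSL2 mRNA was at 47.3 RPKM with DMSO and 60.9 RPKM with Silvestrol, so RFs were lower while mRNA was not. Without the Silvestrol library of passage 3 or of passage 4 the log2 RF change was −1.73 and −1.66, with no call, but then no gene at all was called.

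JUN, the main partner of the FOS proteins, had RFs at 209 RPKM in untreated cells, 215 with DMSO at 1 h and 77.8 with Silvestrol at 1 h. In passage 3 at 2 h it was at 195 (DMSO) and 90.0 (Silvestrol), and in passage 4 it was 116 and 107. All 3 Silvestrol libraries were below all 4 others, but in passage 4 by only 1.08-fold (0.957 to 1.22), against 2.16-fold (2.05 to 2.29) in passage 3. edgeR put the log2 change at 2 h at −0.53 (SE 0.28, n = 2), which became −0.07 without the DMSO library of passage 3 and −0.87 without that of passage 4. JUN mRNA moved the other way, from 55.4 RPKM with DMSO to 154 RPKM with Silvestrol, a ratio of 2.78 (2.72 to 2.85).

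JUNB, a JUN relative that is often less active in growth control, had RFs at 72.6 RPKM in untreated cells, 86.7 with DMSO at 1 h and 52.4 with Silvestrol at 1 h. After 2 h it was at 92.1 (DMSO) and 95.6 (Silvestrol) in passage 3, and 42.3 and 71.6 in passage 4. It was thus below DMSO at 1 h and level or above at 2 h. JUNB mRNA was 2.03-fold higher (1.95 to 2.12), at 35.4 RPKM with DMSO and 71.9 RPKM with Silvestrol. JUND, the family member expressed most steadily in resting cells, ranged only from 55.0 to 80.9 RPKM over the 7 RF libraries. Its mRNA was at 129 RPKM with DMSO and 130 RPKM with Silvestrol.

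ATF3, a stress-induced leucine zipper factor that pairs with JUN proteins, had RFs at 20.4 RPKM in untreated cells, 29.4 with DMSO at 1 h and 36.1 with Silvestrol at 1 h. In passage 3 at 2 h it was at 35.8 (DMSO) and 58.1 (Silvestrol), and in passage 4 it was 25.0 and 69.6. Both Silvestrol libraries at 2 h exceeded every other library. The ratios were 1.62 (1.44 to 1.82) and 2.79 (2.14 to 3.64), and edgeR put the log2 change at 1.17 (SE 0.25, n = 2). ATF3 mRNA was 3.82-fold higher (3.55 to 4.12), at 8.94 RPKM with DMSO and 34.2 RPKM with Silvestrol.

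JUN and ATF3 share a promoter element. Both windows hold TGACATCA, a variant of the AP-1 site to which JUN and ATF dimers can bind and which 2.61% of promoter windows hold on either strand. It is shown because the mRNA of both was higher with Silvestrol, and capitals mark it. In JUN it starts at −67 (minus strand, chr1:58784098-58784123) and in ATF3 at −123 of the upstream of its 2 listed starts (plus strand, chr1:212565275-212565300).
JUN: gccttggggTGACATCAtgggctatt
ATF3: cctatgataTGACATCAtatggccac
TGACG, the core of the cyclic AMP response element, was in the windows of 7 of the 8 members listed (all but ATF3) and in 24.6% of all windows. Shown are FOS and FOSB, where it starts at −64 (plus strand, chr14:75278753-75278778) and −60 (plus strand, chr19:45467925-45467950). The 7 members with these letters had mRNA ratios from 1.01 (JUND) to 12.9 (EGR1).
FOS: ggttgagcccgTGACGtttacactca
FOSB: caaggggcgggTGACGtaagcagggg
Of the other patterns searched, the AP-1 site TGANTCA (N being any base) was in the window of FOSL2 and in 7.71% of windows. TGACGTCA was in that of JUND, starting at −200, and in 1.85% of windows. The mRNA ratios of FOSL2 and JUND were 1.29 and 1.01. A match to any of these patterns is a description of the window and says nothing of binding in these cells.

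The mRNA and RF changes of the 9 members fell into several combinations. EGR1, FOS and ATF3 had more mRNA and more RFs. JUN and FOSB had at least 2-fold more mRNA, with RFs that were lower (JUN) or of no constant sign (FOSB). FOSL2 had an mRNA ratio of 1.29 and fewer RFs. JUNB had 2.03-fold more mRNA, with RFs that overlapped between treatments at 2 h. RFs of JUND, with an mRNA ratio of 1.01, overlapped too. FOSL1 had an mRNA ratio of 1.34, with RFs that were higher in both passages by RPM but in passage 4 alone by RPKM. In passage 3 the log2 RF change was below the log2 mRNA change for all 9 members, as it was for 61.5% of genes, with a median of −0.06 for RFs and 1.48 for mRNA over the 9 members, where all genes had medians of −0.17 and 0.04.

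**Figure D2:**
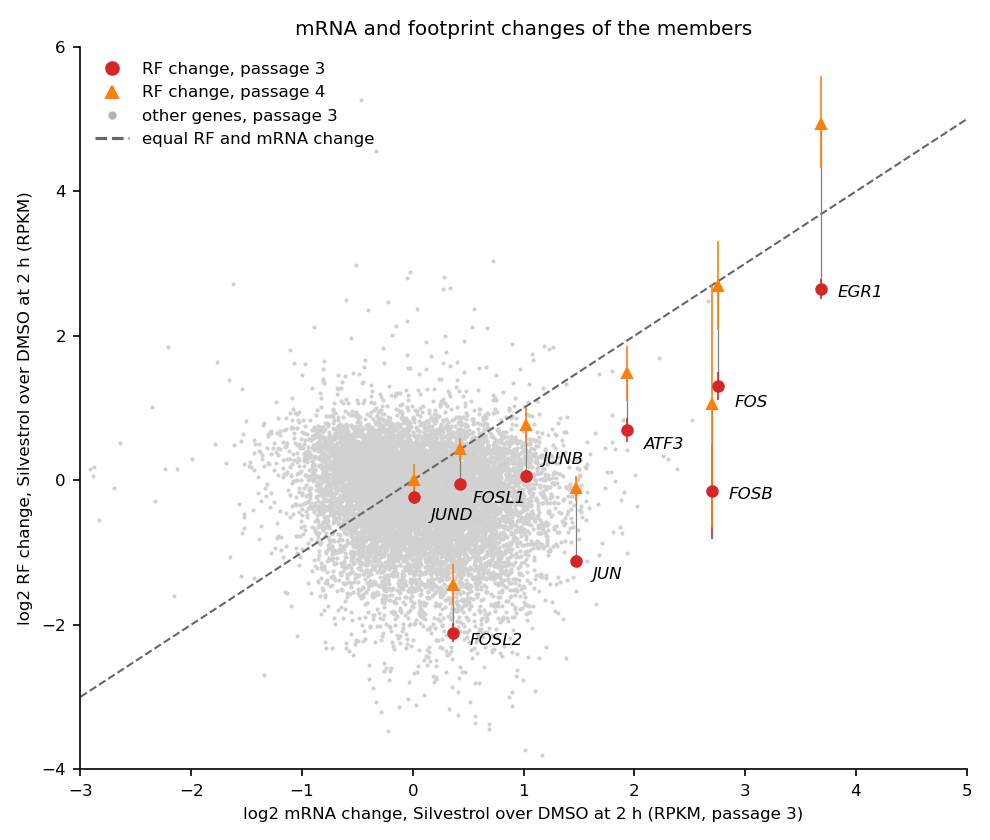
log2 change in RFs against log2 change in mRNA, Silvestrol over DMSO at 2 h, for the 9 members (circles for RFs of passage 3, triangles for passage 4, bars for 95% counting intervals) and for all other genes of passage 3 (grey, 21 of the 10516 genes lying outside the axes). All 9 circles lie under the dashed line of equal change, and in passage 4 EGR1 lies above it, with FOSL1, FOS and JUND close to it.

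TE changes were standardised to z-scores over the 10516 genes. In passage 3 the z-score was −2.56 for FOSB, −2.30 for JUN and −2.18 for FOSL2, 3 of 9 members below −1.5, where 6.52% of genes were, and 0 were above 1.5, where 4.62% were. It was −1.15 for FOS, −0.93 for ATF3, −0.73 for EGR1, −0.66 for JUNB, −0.17 for FOSL1 and 0.07 for JUND. Of the 6 members with mRNA at least 2-fold higher, JUN and FOSB were below −1.5 in TE. Of the 494 genes with such mRNA, 163 were. mRNA is the divisor of TE, and both traits together were found in 1.55% of all 10516 genes. With a pseudocount of 0.5 RPKM FOSB moved to −1.63, while JUN was at −2.49 and FOSL2 at −2.35, and with a minimum of 5 RPKM FOSB was not scored. On an absolute scale, the ratio of RF to mRNA RPKM of JUN went from 3.52 to 0.584 in passage 3, and that of FOSL2 from 3.04 to 0.548.

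With the RFs of passage 4 over the same mRNA libraries, the z-score was −1.59 for FOSL2, −1.42 for FOSB and −1.35 for JUN, and these were again the lowest 3 of the members. Below −1.5 were 1 member and 6.75% of genes, and above 1.5 were 1 member (EGR1) and 4.76% of genes. EGR1 turned from −0.73 to 1.61, and FOS from −1.15 to 0.24. Both other controls of passage 3 were chosen after seeing the data. Untreated RFs gave −2.27 for JUN, −1.96 for FOSL2, −1.55 for FOSB, 0.09 for FOS and 0.95 for EGR1. The DMSO RFs of passage 4 gave −1.38 for JUN, −1.37 for FOSB and −1.39 for FOSL2, with 0 members below −1.5, where 5.93% of genes were, and 1 above 1.5 (EGR1, at 1.71), where 5.18% were. JUN, FOSB and FOSL2 were below 0 with each control library. The sign for FOS and EGR1 depended on the control, and with DMSO of passage 4 JUNB turned from −0.66 to 0.48 and FOSL1 from −0.17 to 0.92 (0.19 with untreated RFs). In edgeR's test of the RF change beyond the mRNA change, 0 members were called in either direction (0.0214% of 14027 genes were lower and 0% higher), and 3, FOSB, FOSL2 and JUN, had an unadjusted p under 0.05, where 17.9% of genes did. Without the DMSO RF library of passage 3 the calls were 2 lower and 1 higher, where 5.59% and 3.71% of genes were called. Without that of passage 4 they were 4 lower and 0 higher, where 7% and 5.92% were, and with 1 Silvestrol RF library left out they were 0, as for 0% of genes. With passage as a block 4 were called lower (ATF3, FOSB, FOSL2 and JUN, where 17.8% of genes were) and 0 higher (17.2%), and with DESeq2 2 were lower (FOSL2 and JUN, where 6.59% of genes were) and 0 higher (4.67%). Each mRNA value comes from 1 library.

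The 3 members with the lowest TE scores had the longest 5′ untranslated regions (UTRs). In the MANE transcripts of GENCODE 44, the 5′ UTR was 977 nucleotides long in JUN, 863 in FOSL2 and 591 in FOSB, against 29 (IER3) to 286 (JUNB) in the other 7 members and a median of 138 over 9706 genes. These lengths stand at the 99.1, 98.7 and 95.6 percentiles of those genes. The relation was not particular to the members, since 42.7% of the 363 genes with a 5′ UTR of at least 591 nucleotides had a z-score below −1.5, and 2.69% of the 7219 genes with at most 286 did. The GC content of the 3 long regions, 56.3% in FOSB, 65.0% in JUN and 68.5% in FOSL2, was below the 69.0% (FOS) to 89.9% (JUND) of 6 shorter ones, and IER3 was at 62.1%.

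**Figure D3:**
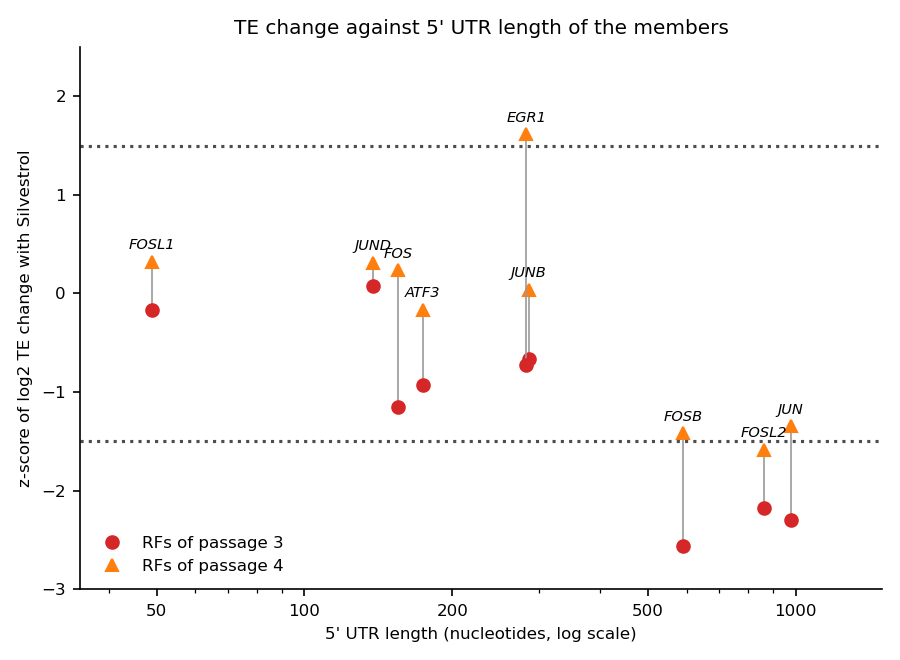
z-score of the TE change with Silvestrol against the length of the 5′ UTR (nucleotides, log scale) for the 9 members, with circles for the RFs of passage 3, triangles for those of passage 4 and dotted lines at −1.5 and 1.5. FOSB, FOSL2 and JUN lie at the right, with z-scores of −2.56 to −1.35.

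The 3′ UTRs of immediate early genes often hold AU-rich elements, built on the pentamer ATTTA, which recruit mRNA decay factors. IER3 had 6 pentamers and FOS 5, or 8.14 and 6.20 per kilobase, at the 98.0 and 95.2 percentiles of the genes. FOSL2 had 9 in a longer region, at 1.85 per kilobase, close to the median of 1.78. The nonamer TTATTTATT, a stronger form of the element, was in FOS and FOSL2 and in 9.92% of genes. EGR1, whose mRNA ratio was the highest, had 1 pentamer and FOSB, ATF3 and JUN had 3 each. The windows below (GRCh37) are shown because they hold the nonamer (FOS at chr14:75748764-75748790 and FOSL2 at chr2:28639223-28639249, both plus strand) or belong to the member with the densest pentamers (IER3, minus strand, chr6:30711431-30711457), and capitals mark ATTTA.
FOS: gtttttaATTTATTTAttaagatggat
FOSL2: tttattttattATTTAttttaaatgtt
IER3: tcctaattaatATTTAtatgtATTTAt
FOS and FOSL2 thus share the nonamer, with mRNA ratios of 6.76 and 1.29.

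The vehicle-treated cells were not a constant base for these genes. In DMSO at 1 h, 8 of the 9 members were above untreated cells, where 47.2% of genes were. The ratio was 8.44 (7.22 to 9.93) for EGR1, the highest of 10505 genes, and below 1.5 for all other members, with JUND at 0.996. At 2 h in passage 3, EGR1 was still 3.20-fold and FOS 2.30-fold above untreated, the 2 members at least 2-fold higher, where 0.609% of genes were, and 8 members were above untreated by any amount, where 42.1% were.

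The 2 DMSO cultures at 2 h also differed. All 9 members had more RFs in passage 3 than in passage 4, where 52.8% of genes did, and 5 of them (EGR1, FOS, FOSB, FOSL1 and JUNB) at least 2-fold more, where 2.37% did. For FOSL1 the ratio of 2.17 became 1.33 when reads were scaled to library totals only, whereas for the other 4 it was at least 2.09 on that scale. The ratio was 5.74 (3.82 to 9.03) for EGR1 and 3.11 (2.17 to 4.61) for FOS. Between the Silvestrol cultures, 5 members were higher in passage 3, where 44% of genes were, and 0 differed by 2-fold or more, where 5.49% did. EGR1 differed by 1.18-fold (1.05 to 1.34). The larger RF ratios of EGR1, FOS and ATF3 in passage 4 went with lower DMSO levels there, and for ATF3 also with a higher Silvestrol level (69.6 against 58.1 RPKM). Passage, depth and the time of sampling cannot be told apart between these cultures.

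At 1 h the members were already divided. RFs were at least 2-fold lower with Silvestrol for 3 members (FOSL2, JUN and FOSB), where 7.98% of genes were. The declines were 4.00-fold for FOSL2, 2.77-fold (2.64 to 2.90) for JUN and 2.12-fold (1.26 to 3.72) for FOSB, from 59 and 20 reads. FOSB was under 2-fold lower by library totals (log2 −0.96) and with a pseudocount of 0.5 RPKM (−0.72), which left 2 members. RFs were higher for EGR1 by 1.42-fold (1.33 to 1.52), for FOS by 1.63-fold (1.40 to 1.91) and for ATF3 by 1.23-fold (1.09 to 1.38), and 32.9% of genes were higher. By 2-fold or more, 0 members were higher, where 0.333% of genes were. Between 1 h and 2 h of Silvestrol in passage 3, RFs were 2.53-fold higher for FOS, 2.62-fold for FOSB, 1.82-fold for JUNB and 1.67-fold for EGR1, but 1.16-fold for JUN and 0.938-fold for FOSL2. Each time point at 1 h is 1 library, and no mRNA was sequenced at 1 h, so TE at that time is unknown.

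Over the 7 RF libraries, the members' log2 levels were compared in pairs. The Pearson correlation was 0.95 between FOS and ATF3, 0.87 between FOS and EGR1 and 0.92 between FOSL2 and JUN, while FOS and FOSL2 were at −0.74. These values are a description over libraries that share treatments and cultures. Among 1934 other genes with comparable variation, the 3 with the RF course nearest to that of FOS were ZFP36 (0.98), KLF10 (0.98) and G0S24 (0.98). ZFP36 encodes tristetraprolin, which binds AU-rich elements and hastens mRNA decay, and KLF10 is a TGF-beta-induced zinc finger repressor. G0S24 is listed by RefSeq as another name of ZFP36, and both entries may count the same reads. RFs of ZFP36 were at 13.8 RPKM in untreated cells, then at 2 h 18.8 (DMSO) and 59.3 (Silvestrol) in passage 3 and 8.41 and 45.7 in passage 4.

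INK128 changed RFs of all 10 members by less than 2-fold. Levels in this experiment are in FPKM, fragments per kilobase scaled to library size, without read counts, so the depth behind a value is unknown and ratios have no error. Of the 10 members, 8 passed the filter for a z-score (all but FOS and FOSB, for which RNA FPKM was under 0.2). Over those 8, the log2 RF change ran from −0.54 (EGR1) to 0.19 (ATF3). Changed 2-fold in either direction were 0, where 1.69% of 7102 genes were higher and 1.96% lower. EGR1, FOSL1, IER3 and JUN stood at the 3.96, 7.65, 8.31 and 11.6 percentiles of RF change over those genes. JUNB, FOSL2, JUND and ATF3 stood at the 44.3, 65.4, 72.7 and 81.0 percentiles. EGR1 RFs were at 6.61 FPKM with DMSO and 4.56 FPKM with INK128. FOS, outside the filter, was at 3.00 FPKM and 1.52 FPKM, the largest RF difference of the 10, with RNA at 0.105 and 0.0993 FPKM.

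IER3, a small stress-response protein linked to cell survival, had the highest RF level of the members here, at 473 FPKM with DMSO and 378 FPKM with INK128. Its RNA was at 36.7 and 22.7 FPKM. FOSL1 followed, with RFs at 389 and 307 FPKM. JUN was at 58.2 and 48.6 FPKM of RFs, JUNB at 90.0 and 89.3, JUND at 44.5 and 48.8, and FOSL2 at 25.1 and 26.7. FOSL2 and JUN, which had fewer RFs with Silvestrol in every library, thus had log2 RF changes of 0.09 and −0.26 with INK128.

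Total RNA FPKM shifted as a whole with INK128, with a median log2 change of −1.17 over the genes used, and changes in RNA and TE are read against that shift. Relative to it, RNA of ATF3 was higher by 1.28 on the log2 scale, EGR1 by 0.73, JUNB by 0.70 and IER3 by 0.48, while FOSL2, JUND, FOSL1 and JUN lay within 0.18 of it. The TE z-score was −2.39 for EGR1 and −2.03 for ATF3, 2 of 8 members below −1.5, where 5.58% of genes were, with 0 above 1.5, where 1.75% were. It was −1.48 for IER3 and −1.29 for JUNB. Scaled by median and MAD, 4 members were below −1.5, where 12.3% of genes were. For FOSL1, FOSL2, JUN and JUND it was between −0.25 and 0.12. EGR1 RNA was at only 0.631 and 0.467 FPKM and ATF3 RNA at 0.580 and 0.626 FPKM, so these 2 scores rest on low RNA values.

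**Figure D4:**
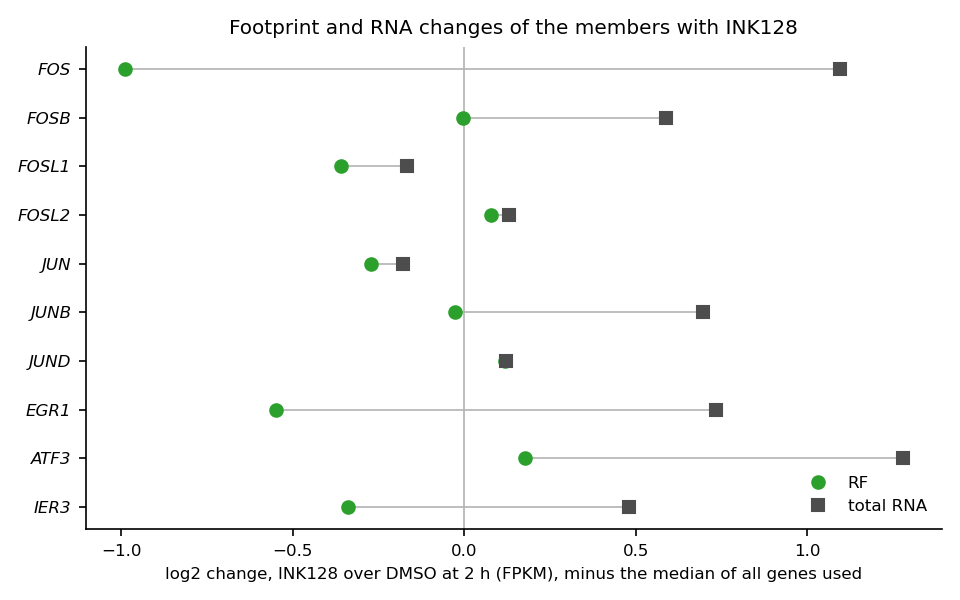
log2 change with INK128 over DMSO at 2 h, minus the median of the 7102 genes used, in RFs (green circles) and total RNA (squares) for the 10 members, 1 library each. RNA lies above the median of all genes for 8 of the 10 members, most for ATF3 at 1.28, and FOS, with RNA near 0.1 FPKM and outside the filter, has the lowest RF value, at −0.99.

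Other genes of the pathway were read from lists. Of 20 other AP-1 and related leucine zipper factors, 16 were tested for RFs, 1 fell (ATF2, a CREB-family partner of JUN, by 1.08 on the log2 scale, SE 0.17, n = 2) and 0 rose, where 5.96% and 1.54% of all genes did. The fit with the passage block gave 7 that fell, where 26.7% of all genes did, and 0 that rose, where 23.9% did. The median log2 RF change of the 16 was −0.33, against −0.02 over all genes tested, and 1 of the 15 that passed the level filter, CREB5, had mRNA at least 2-fold higher, at 2.01-fold. Its RFs were at 6.07 RPKM with DMSO and 4.04 RPKM with Silvestrol in passage 3. ATF1 mRNA was 1.81-fold higher and ATF4 mRNA 1.66-fold, the latter with 5 to 36 RF reads per library, too few to place.

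Of 37 other immediate early genes, 32 were tested, 2 rose and 0 fell, where 1.54% and 5.96% of all genes did. The genes that rose were SGK1, a serum-induced kinase, by 0.97 on the log2 scale (SE 0.18), and KLF6, a zinc finger factor, by 0.94 (SE 0.19). The median log2 RF change of the 32 was 0.58, against −0.02 over all genes tested. Of the 31 that passed the level filter, 11 had mRNA at least 2-fold higher, where 4.7% of genes did. The largest mRNA ratios were those of EGR4 at 9.40 (3.51 to 31.5), NR4A3 at 6.25 (4.08 to 9.83) and EGR3 at 5.69 (3.46 to 9.70), each with 32 RF reads or fewer in any library and not tested. Without the DMSO library of passage 3, 12 rose, where 1.23% of all genes did, and without that of passage 4, 1 did, where 0.794% did. With DESeq2, 10 rose, where 6.8% did. With passage as a block 21 rose, where 23.9% did, and 6 fell, where 26.7% did.

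Of 25 upstream kinases and serum response factor cofactors, 23 were tested, 7 fell and 0 rose, where 5.96% and 1.54% of all genes did. Under the passage block 11 fell and 2 rose, where 26.7% and 23.9% did. The largest declines were those of ELK3, an ETS cofactor of serum response factor, by 2.02 on the log2 scale (SE 0.22), of the kinase RPS6KA5 (MSK1) by 1.45 (SE 0.25), of MAPK9 (JNK2) by 1.33 (SE 0.18) and of MAPK14 (p38 alpha) by 1.29 (SE 0.12). ELK3 RFs were at 50.1 RPKM with DMSO and 10.8 RPKM with Silvestrol in passage 3, and at 41.7 and 9.69 in passage 4, with mRNA at 26.5 and 30.8 RPKM. MAPK14 mRNA was at 61.9 and 59.5 RPKM. The mRNA of MAPK8 (JNK1) and of MKL2, a serum response factor cofactor, was 1.33 and 1.32-fold higher, with log2 RF changes of −0.38 and −1.04 that were called with the block (edgeR, adjusted p = 0.0115 and 2.66e-07) but not without it (0.228 and 0.0506). The 4 genes with the largest RF declines had mRNA ratios between 0.961 and 1.61.

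Of 24 mRNA decay factors, all were tested, 5 fell and 0 rose, where 5.96% and 1.54% of all genes did. With passage as a block 8 fell and 7 rose, where 26.7% and 23.9% did. CNOT1, the scaffold of the CCR4-NOT deadenylase, fell by 2.03 on the log2 scale (SE 0.17), the deadenylase subunit CNOT6 by 1.90 (SE 0.22), HNRNPD (AUF1), which binds AU-rich elements, by 1.61 (SE 0.14) and CNOT8 by 0.94 (SE 0.14). CNOT1 RFs were at 34.5 RPKM with DMSO and 6.96 RPKM with Silvestrol in passage 3, and at 38.7 and 9.50 in passage 4. ZFP36, named above for its FOS-like course, belongs to this list and to that of other immediate early genes, and had a log2 RF change of 2.05 (SE 0.44) with mRNA 2.12-fold higher. It was not called without the block (edgeR, adjusted p = 0.0562) and was called with it (1.76e-38). TIA1 and ZFP36L1, which bind AU-rich RNA, had mRNA 1.92 and 1.82-fold higher. Whether these changes bear on the members' mRNA was not tested.

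Of 18 AP-1 target genes, 12 were tested, 1 fell and 1 rose, where 5.96% and 1.54% of all genes did. The passage block gave 2 that fell and 2 that rose, where 26.7% and 23.9% did. CCND1, which encodes cyclin D1, fell by 1.30 on the log2 scale (SE 0.16). The cytokine gene IL6 rose by 1.02 (SE 0.19), with RFs at 39.9 RPKM with DMSO and 74.6 RPKM with Silvestrol in passage 3, 37.4 and 68.2 in passage 4, and mRNA 3.48-fold higher (3.25 to 3.74). The mRNA of the chemokine gene IL8 was 3.66-fold higher (3.46 to 3.87), but its RFs were at 145.5 RPKM with DMSO and 92.6 RPKM with Silvestrol in passage 3, and at 83.5 and 81.5 in passage 4. IL6 and IL8 thus had like mRNA ratios with different RF courses, and the difference between them was not tested. PTHLH mRNA was 2.25-fold higher (1.29 to 3.96), with too few RFs to test. The adjusted p-values behind the calls named in these lists were between 0.021 and 0.049 (edgeR's quasi-likelihood test). With 1 Silvestrol RF library at 2 h left out, 0 genes of the 5 lists were called, and 0 of all genes. In none of the 5 lists was a TE change called by edgeR without the block, where 0.0214% of 14027 genes were lower and 0% higher. TE z-scores were below −1.5 for 5 of 31 other immediate early genes, 3 of 12 AP-1 targets and 3 of 24 decay factors. They were for 2 of 21 upstream genes and 0 of 15 AP-1 relatives, and for 6.52% of genes. Above 1.5 were 3 other immediate early genes and 0 in the other lists, where 4.62% of genes were.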

How the data were processed

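RFs and mRNA of MDA-MB-231 cells were read from the table of each drug experiment. For Silvestrol, linkers were trimmed and rRNA reads discarded, and Bowtie alignments to hg19 and to the canonical KnownGene transcripts of UCSC were kept where unique. The authors deposited these counts for each transcript, and RPKM values from which positions with non-unique reads are left out. The submitters' processing notes list CASAVA 1.8.1 and Bowtie2. For INK128 the authors deposited FPKM values without counts, and the program that made them is not given in the sources used here. Columns of the authors' own TE, its log2 change and its score, and their mean RPKM of the passages, were not used.

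RF counts at 2 h (2 DMSO and 2 Silvestrol libraries) were tested with edgeR 4.0.16 (R 4.3.3) by quasi-likelihood, TMM normalisation and filterByExpr, with an adjusted p under 0.05 as a call. TE was tested as the interaction of treatment and library kind. DESeq2 1.42.0 was an alternative, and the steps were tested on simulated data. The TE z-score is the log2 change in RF over mRNA RPKM of passage 3, less its mean and divided by its SD over genes above 0 in those 4 libraries with mean RF RPKM of at least 1 and mean mRNA RPKM of at least 0.3, and a score past 1.5 in size was counted. Ratios of 2 libraries carry exact conditional binomial 95% intervals, which cover counting error only.

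Passage, given by the labels, pairs the libraries at 2 h: deviations from the treatment means correlated at 0.78 between DMSO and Silvestrol over 11196 genes. The members and the gene lists were chosen with earlier results of these data known. All 10 members are named. From each list the text names up to 4 called genes with the largest RF change and the 3 largest mRNA rises with at least 20 mRNA reads, and the 3 genes most correlated with FOS over log2(RPKM + 0.5). TIMM23, FUNDC2, GPAT2 and PRSS3 were named after their values were seen. Total counted reads ranged from 2652423 to 50315607 per library, and low counts are given where they limit a value. UTRs came from GENCODE 44 lifted to GRCh37, promoters from RefSeq (GRCh38.p14), which listed 8 members. Alternatives were another normalisation and test, no filter, pseudocounts, the counted length as offset and other control libraries. Each RF library at 2 h of the Silvestrol experiment was also left out in turn.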

Additional observations from a re-analysis of the deposited data

Results flagged for a closer look

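JUNB had a log2 RF change with Silvestrol of −0.73 at 1 h, against 0.05 in passage 3 and 0.76 in passage 4 at 2 h, so that the sign at 1 h was opposite to that of both cultures at 2 h. Only 1 library of each treatment was sequenced at 1 h, and the difference between the times was not tested.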

How the results depend on the processing

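Members with mRNA at least 2-fold higher remained 6 in number with a pseudocount of 0.5, and members 2-fold lower in RFs at 1 h went from 3 to 2, without FOSB, by library totals and with that pseudocount. With passage as a replicate block, members called for RFs numbered 2 lower and 5 higher, and for TE 4 lower. DESeq2 called 1 lower and 3 higher for RFs and 2 lower for TE. For RFs, no filter on low counts gave 1 lower and 3 higher (6.93% and 2.07% of genes). Leaving out each replicate in turn gave 0 to 2 lower and 0 to 3 higher for RFs, and 0 to 4 lower and 0 to 1 higher for TE. The RFs of passage 4 put 1 member below −1.5 (6.75% of genes) and 1 (EGR1) above 1.5 (4.76%). DMSO of passage 4 as the control of passage 3, a choice made after seeing the data, put 0 below (5.93%) and 1 above (5.18%). For INK128, median and MAD in place of mean and SD put 4 members and 12.3% of genes below −1.5.

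Among the other lists, the passage block, which called 26.7% of all genes lower and 23.9% higher, called 7 other AP-1 and related factors lower, 6 other immediate early genes lower and 21 higher, 11 upstream genes lower and 2 higher, 2 AP-1 targets lower and 2 higher, and 8 decay factors lower and 7 higher. DESeq2 called 10.8% of all genes lower and 6.8% higher. Lower by DESeq2 were 1 AP-1 relative, 1 other immediate early gene, 8 upstream genes, 1 AP-1 target and 5 decay factors. Higher were 10 other immediate early genes, 2 AP-1 targets and 1 decay factor, with 0 in the other lists. Without each replicate in turn (added after seeing the data), the ranges were 0 to 1 lower and 0 higher for the AP-1 relatives, 0 lower and 0 to 12 higher for other immediate early genes, 0 to 6 lower and 0 to 1 higher for upstream genes, 0 to 1 lower and 0 to 1 higher for AP-1 targets, and 0 to 4 lower and 0 to 1 higher for decay factors.

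The TE z-scores of EGR1 and FOS, −0.73 and −1.15, turned to 1.61 and 0.24 with the RFs of passage 4, 0.95 and 0.09 with untreated RFs as control (also chosen after seeing the data) and 1.71 and 0.51 with DMSO of passage 4 as control. Passage 4 RFs turned those of JUNB and FOSL1 to 0.037 and 0.32. For JUND the RF change (log2) became −0.00011 with no filter on low counts, and ran from −0.14 to 0.20 with 1 library left out, and that of JUNB from −0.012 to 1.16. The edgeR log2 TE change with 1 library left out ran from −1.38 to 0.34 for FOS, −0.95 to 0.24 for JUNB, −0.96 to 1.63 for EGR1, −0.14 to 0.31 for FOSL1 and −0.071 to 0.28 for JUND, the highest value being in each case without DMSO of passage 3 and the lowest without DMSO of passage 4. For FOSL1 it was −0.061 with the counted length as offset. The cause was not tested. mRNA has 1 library per treatment, so no spread between cultures is known for it, and passage 4 has few reads for FOSB, EGR1 and FOS.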
